A study of Mus musculus with 6 samples.

Results

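Of the 1285 genes in a comparison of Snai2-/- with control marrow stroma, 24 stood at a group mean of 2 or more in control cells and below 1 in Snai2-/- cells. They were picked from the authors' deposited table by those limits, after predicted models, clones and some large families (among them solute carriers, zinc-finger genes, collagens, chemokines and interleukins) had been left out by symbol. That step took away 2 genes, Il31ra and Gm5345. Because the means chose the genes, their ratios, p-values and false discovery rates (FDR) below are a description, with no test behind them.

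The cells were mesenchymal stem and progenitor cells of mouse bone marrow, taken at 8 weeks of age from control mice and from Snai2-/- littermates, which lack the zinc-finger repressor Slug. About 2000 cells per library were sorted for Nes-GFP, a green reporter that nestin sequences drive and that cells of both genotypes carried, and against CD45, Ter119 and CD31, which mark leukocytes, erythroid cells and endothelium. There were 3 libraries per genotype. Whether every library stands for a separate animal is not said in the labels, and part of the spread behind the authors' p may be technical. The values are 1 mean per group on a normalized scale of the authors, in a unit not given in the sources used here. Values of single libraries and their depth were not analysed here, so no error can stand beside a mean, and how far the libraries of the groups overlap cannot be told.

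As a check of the labels, Snai2 had means of 636 in control and 9.20 in cells without Snai2 in the authors' deposited table, 69.2 times lower. Genes of the authors' table all have an unadjusted p below 0.05, so every one of the 24 was called at that limit by construction. Lower genes at that limit were 3.91% of the 16718 genes tested, and calls in either direction were 7.69%. An FDR of 0.1 was passed by 0 of the 24 according to the authors' deposited table, while 0.00598% of genes (Snai2 alone) passed it in the lower direction. An unadjusted p below 0.01 was listed for 9 of the 24 in the authors' deposited table, that is 37.5%. All 24 had already passed 0.05, as had the 654 genes listed as lower. Of those 654, 24.8% were below 0.01 (162 genes, 0.969% of the genes tested). The limits on the means also forced a minimum fold on the 24, which the 654 genes did not have to meet. The shares of 37.5% and 24.8% are therefore not like for like, and no excess of small p follows from them. The FDR of the 24 ran from 0.322 to 0.64 in the authors' deposited table.

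Slug and its relatives bind a short DNA element, the E-box, and mostly silence the genes next to it. The genes described here were lower where this repressor is missing. Marrow stromal cells are known for matrix, chemokine and niche factor genes, whereas many of the 24 are better known from platelets, neurons, testis, muscle or ciliated cells. They code for receptors, cytoskeletal and contractile proteins, calcium-binding proteins, enzymes, interferon-induced proteins and nuclear proteins.

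A few promoters are shown first, since sequence played no part in choosing the genes. F2rl2 and Slamf1 are the receptor genes with the highest control means, Tnnt1 and Dnaaf3 are chromosomal neighbours, and Epsti1 and Oas1a are the interferon-induced pair. The stretches are RefSeq sequence on GRCm38.p6, 5′ to 3′ on the strand of the gene. They end before the GENCODE M21 gene begins, except for Tnnt1, whose stretch lies inside a gene that begins upstream at 4516382. They cover chr13:95696670-95696852, plus strand, for F2rl2, chr1:171766882-171767126, plus strand, for Slamf1, and chr7:4516005-4516225, minus strand, for Tnnt1. The other 3 are chr7:4532466-4532715, minus strand, for Dnaaf3, chr14:77903989-77904238, plus strand, for Epsti1, and chr5:120907526-120907775, minus strand, for Oas1a. Capitals mark CAGGTG on either strand (CACCTG on the other), the E-box form that Snail-family repressors bind, and in Oas1a a pair of overlapping matches to GAAA, any 2 bases, GAAA, the core of the interferon-stimulated response element (ISRE).
F2rl2: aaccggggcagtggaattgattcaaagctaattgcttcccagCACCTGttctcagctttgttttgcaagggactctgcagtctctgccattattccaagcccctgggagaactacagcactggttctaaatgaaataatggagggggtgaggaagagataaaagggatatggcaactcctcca
Slamf1: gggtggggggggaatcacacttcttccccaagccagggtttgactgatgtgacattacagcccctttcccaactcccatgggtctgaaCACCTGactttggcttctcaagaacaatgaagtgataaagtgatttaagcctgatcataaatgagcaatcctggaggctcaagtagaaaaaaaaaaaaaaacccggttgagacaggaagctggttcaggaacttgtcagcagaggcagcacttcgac
Tnnt1: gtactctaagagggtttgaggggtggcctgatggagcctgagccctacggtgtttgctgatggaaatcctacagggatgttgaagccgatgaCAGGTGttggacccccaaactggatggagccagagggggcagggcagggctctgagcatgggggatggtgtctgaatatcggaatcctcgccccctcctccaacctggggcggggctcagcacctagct
Dnaaf3: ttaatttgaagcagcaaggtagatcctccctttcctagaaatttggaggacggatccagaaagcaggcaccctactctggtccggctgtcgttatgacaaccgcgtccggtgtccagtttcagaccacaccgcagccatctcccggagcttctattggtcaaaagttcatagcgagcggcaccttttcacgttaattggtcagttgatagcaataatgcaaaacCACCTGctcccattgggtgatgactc
Epsti1: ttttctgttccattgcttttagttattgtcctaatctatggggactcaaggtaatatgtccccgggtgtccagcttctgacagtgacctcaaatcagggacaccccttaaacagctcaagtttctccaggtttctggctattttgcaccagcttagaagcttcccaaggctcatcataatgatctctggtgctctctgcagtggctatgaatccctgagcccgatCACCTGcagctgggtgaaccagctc
Oas1a: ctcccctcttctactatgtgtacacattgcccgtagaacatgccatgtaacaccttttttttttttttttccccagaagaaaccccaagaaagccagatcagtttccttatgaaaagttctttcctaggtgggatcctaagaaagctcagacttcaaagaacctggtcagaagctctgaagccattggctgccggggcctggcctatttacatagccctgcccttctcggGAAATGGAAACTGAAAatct
CAGGTG began 208 bases before the RefSeq start of F2rl2, 162 before that of Slamf1 and 158 before that of Tnnt1. For Dnaaf3 and Epsti1 it began 26 and 25 bases before that start. The RefSeq start differs from the GENCODE M21 one: between stretch and RefSeq start lie 67 bases in F2rl2, 29 in Tnnt1 and 5 in Slamf1. The marked CAGGTG of Tnnt1 lies inside the GENCODE gene. In Oas1a the overlapping matches began 20 and 14 bases before the RefSeq start. These promoters were picked after their matches were known: 5 of the 6 hold CAGGTG, whereas 11 of the 19 genes with a promoter sequence do not.

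Most of the 24 genes lay close to the limits. The control mean was above 5 for 4 genes, from 3 to 5 for 8 and under 3 for 12 in the authors' deposited table. The median was 2.80 in control and 0.711 in cells without Snai2 in the authors' deposited table, against 20.3 and 11.2 over the 654 genes listed as lower. Every one of the 24 fell in the lower part of the table by total signal, the most abundant at place 860 of 1285. Their totals over all 6 libraries ran from 6.67 (Phf24) to 48.4 (F2rl2) on the authors' normalized scale. The means and folds of these genes therefore rest on little signal. Of the 22 genes with a usable fold, 6 were at least 10 times lower, 3 were 5 to 10 times lower and 13 were under 5 times lower in the authors' deposited table. The other 2 genes, Slamf1 and Cass4, stood at 0.0001 in Snai2-/- cells, which is a floor value of unstated origin, and they therefore have no fold. The plot of group means by gene shows this spread.

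**Figure D1:**
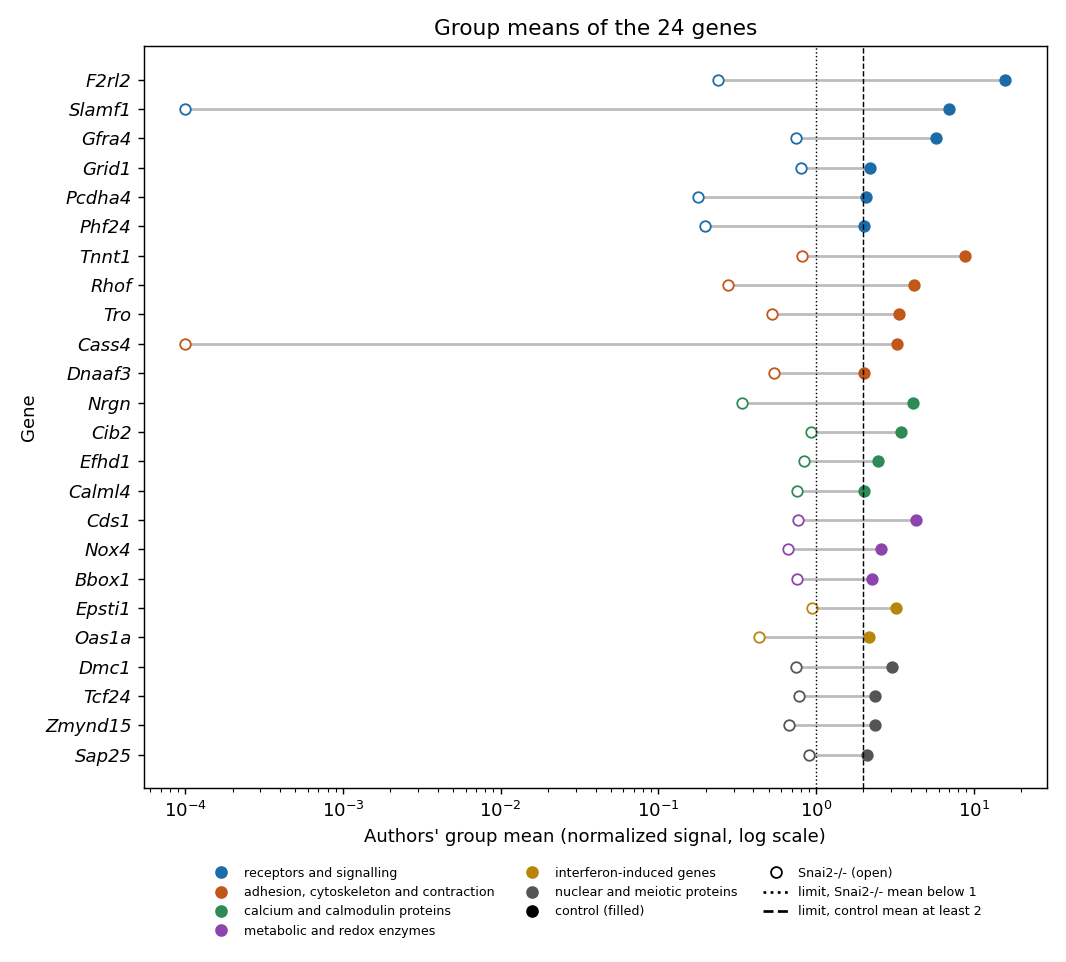
Group means of the 24 genes from the authors' deposited table, on a log axis of normalized signal, ordered by role; filled points are control, open points Snai2-/-, and the lines mark the limits of 1 and 2. Most control points lie between 2 and 5, F2rl2 reaches 15.9, and Slamf1 and Cass4 sit at the floor of 0.0001 in Snai2-/- cells.

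The limits cut through a continuous range. Just inside the control limit were Calml4, Phf24 and Dnaaf3 with control means of 2.002, 2.03 and 2.03 in the authors' deposited table. Just outside it were Ppara, Peg12 and Txlnb, with 1.99, 1.98 and 1.87 there, in the authors' deposited table. At the other limit Epsti1, Cib2 and Sap25 had Snai2-/- means of 0.938, 0.935 and 0.908 in the authors' deposited table, against 1.002, 1.003 and 1.11 for Gria3, Plekha4 and Zfat just outside. Of the 97 genes lower in Snai2-/- cells with a mean below 1 there, 71 had a control mean under 2 in the authors' deposited table. The same limits applied in the opposite direction gave 43 genes. The plot of both means for the whole table shows the 24 at its lower edge.

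**Figure D2:**
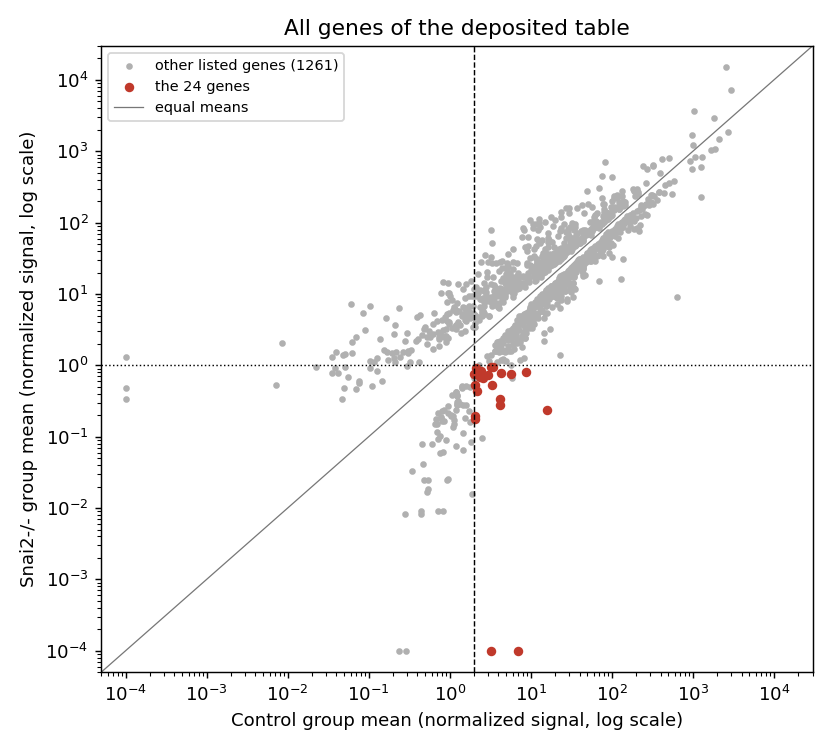
Control mean (x) against Snai2-/- mean (y) for all 1285 listed genes, both on log axes of normalized signal; red points are the 24 genes, the dotted and dashed lines the limits of 1 and 2. The red points fill the corner below 1 and right of 2, and the empty band along the diagonal is where genes with a p of 0.05 or more would lie.

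The 6 genes of receptors and their signalling held the highest control mean of the set. F2rl2 codes for protease-activated receptor 3, which helps thrombin act on mouse platelets. It had means of 15.9 in control and 0.237 in cells without Snai2 in the authors' deposited table, 67.0 times lower with a p of 0.0318. The gene (GRCm38 chromosome 13, 95696853 to 95702739, plus strand) lies inside Iqgap2, which runs on the opposite strand, with no shared exon bases. Slamf1 codes for CD150, a surface receptor of lymphocytes and of blood stem cells (chromosome 1, 171767127 to 171801184, plus strand). Its control mean was 6.95 and its Snai2-/- mean the floor of 0.0001, with a p of 0.00321 in the authors' deposited table. Slamf1 was the only one of 5 genes named Slamf to be listed. Its neighbour Cd48, a related receptor 61868 bases away, went the other way, with means of 1.21 in control and 3.64 in cells without Snai2 in the authors' deposited table.

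Gfra4 codes for the receptor of the neurotrophic factor persephin (chromosome 2, 131039632 to 131043088, minus strand). It had means of 5.75 and 0.746 in control and cells without Snai2 in the authors' deposited table, 7.71 times lower. Gfra1, the receptor for GDNF and the other listed gene of the 4 in that family, was higher in Snai2-/- cells, with 53.8 against 12.6 in the authors' deposited table. So the 2 listed members of this receptor family stood on opposite sides. Grid1, a glutamate receptor family gene that organises synapses (chromosome 14, 34820108 to 35583379, plus strand), had means of 2.19 and 0.809 in the authors' deposited table. Of 18 glutamate receptor genes 4 were listed: Gria3 was also lower, with 5.68 against 1.002, while Grik3 (0.104 against 6.85) and Grik5 (0.309 against 1.59) were higher in the authors' deposited table. Pcdha4, a protocadherin of the neuronal alpha cluster, had the smallest p of the 24, 0.00151, with means of 2.07 and 0.179 in the authors' deposited table. Pcdha11 of the same cluster was also listed as lower, with 1.23 against 0.276 in the authors' deposited table. In GENCODE M21 at most 49.7% of the exon bases of Pcdha4 were shared with any other single cluster gene, and, with the handling of such reads not given in the sources used here, these values are uncertain. Phf24 codes for a neuronal protein that binds inhibitory G-protein alpha subunits and acts in GABA-B receptor signalling (chromosome 4, 42916660 to 42944752, plus strand). It had means of 2.03 and 0.196 in the authors' deposited table, 10.3 times lower.

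The cytoskeletal and contractile group held 5 genes. Tnnt1 codes for the troponin T of slow skeletal muscle (chromosome 7, 4504570 to 4516382, minus strand). It had the second highest control mean, 8.85, against 0.816 in cells without Snai2 in the authors' deposited table, 10.8 times lower. No other of the 8 troponin genes was listed. Cass4, a scaffold of the Cas family that works in cell adhesion signalling (chromosome 2, 172393794 to 172433757, plus strand), had a control mean of 3.26 and stood at the floor in cells without Snai2 in the authors' deposited table, with a p of 0.00312. Of its exon bases 21.2% are also covered by an antisense gene, and library kits of this kind do not mark the strand, so reads of the pair cannot be told apart. Rhof, a small GTPase that drives filopodia (chromosome 5, 123103044 to 123132692, minus strand), had means of 4.17 and 0.278 in the authors' deposited table, 14.96 times lower.

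Tro, which codes for trophinin, a MAGE-family adhesion protein (chromosome X, 150645304 to 150657583, minus strand), had means of 3.36 and 0.526 in the authors' deposited table. Dnaaf3 is needed to assemble the dynein arms of motile cilia (chromosome 7, 4522933 to 4532453, minus strand). It had means of 2.03 and 0.539 in the authors' deposited table, 3.76 times lower. Dnaaf3 and Tnnt1 were the 1 pair of the 24 within 100 kb of each other, 6550 bases apart on the same strand. Between them lies Tnni3, the cardiac troponin I gene (4518305 to 4524229), which shares 86 exon bases with Dnaaf3 and was not listed. Of the 24 genes 9 (37.5%) had a listed gene within 100 kb, against 28.1% of the 1249 listed genes with a position in GENCODE M21. Among those listed as lower it was 29.1%. Tnnt1 and Dnaaf3 count for each other among the 9, and the listed neighbours of Pcdha4, Oas1a and Zmynd15 may share reads with them. Cd48, Fibin and Tfr2, near Slamf1, Bbox1 and Sap25, were higher in Snai2-/- cells, and the other listed neighbours were lower. The 24 genes were spread over 12 chromosomes, and 0 lay on chromosome 16, which carries Snai2.

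Calcium and calmodulin proteins made up 4 of the 24. Nrgn codes for neurogranin, which holds calmodulin at synapses and is also known from platelets (chromosome 9, 37544492 to 37552904, minus strand). It had means of 4.14 in control and 0.34 in cells without Snai2 in the authors' deposited table, 12.2 times lower, yet its p of 0.0444 was among the highest of the set. Cib2, a calcium- and integrin-binding protein needed by sensory hair cells (chromosome 9, 54544794 to 54560218, minus strand), was only 3.68 times lower, with 3.45 against 0.935 and a p of 0.00487 in the authors' deposited table. The pair shows that the order by fold and the order by p differ within the set. Efhd1, a mitochondrial calcium-binding protein (chromosome 1, 87264363 to 87310839, plus strand), had means of 2.46 and 0.835 in the authors' deposited table. Calml4, a calmodulin-like protein of microvilli (chromosome 9, 62858080 to 62875921, plus strand), had means of 2.002 and 0.76 in the authors' deposited table. Calml3, the other listed gene of 7 calmodulin and calmodulin-like genes, was higher in Snai2-/- cells, with 0.96 against 0.0505 in the authors' deposited table.

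Across the 22 genes with a fold, large differences did not always carry a small p. F2rl2 stood 1 by fold among them and 15 by p, and Nrgn stood 3 and 21, ranked from the authors' deposited table. Pcdha4 stood 4 by fold and 1 by p, and Cib2 14 and 2, ranked from the authors' deposited table. Spearman's rank correlation between the ratio of Snai2-/- to control and p was 0.397 across these 22 genes, a description over genes that share the same 6 libraries. The plot of fold against p shows both kinds of gene.

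**Figure D3:**
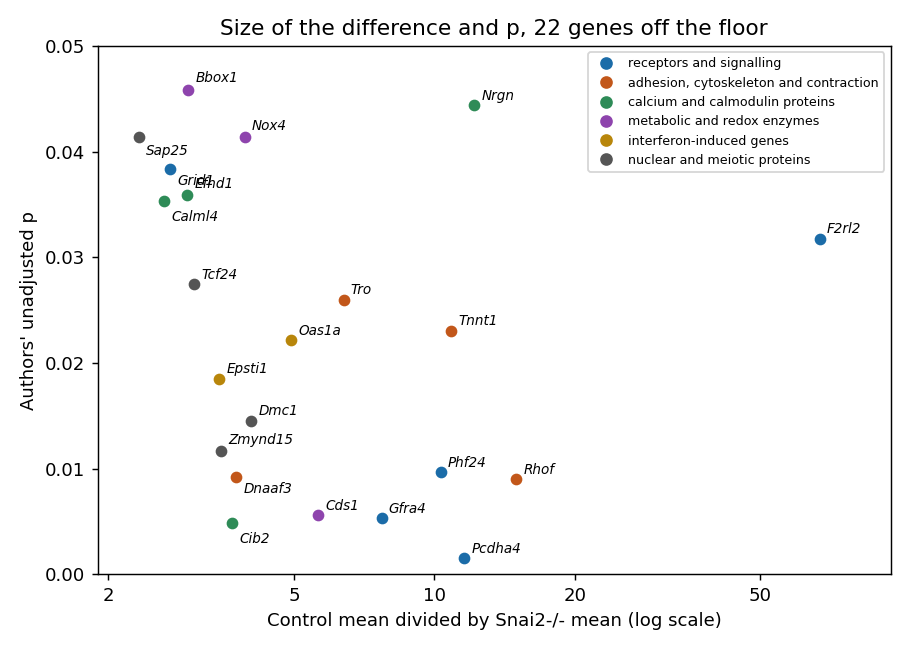
Control mean divided by Snai2-/- mean (x, log scale) against the authors' unadjusted p (y) for the 22 genes above the floor, coloured by role. F2rl2 and Nrgn combine folds of 67.0 and 12.2 with p of 0.0318 and 0.0444, whereas Cib2 has a fold of 3.68 and a p of 0.00487.

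Enzymes of lipid, oxygen and carnitine chemistry made up 3 genes. Cds1 makes CDP-diacylglycerol, a precursor of phosphoinositides (chromosome 5, 101765130 to 101823858, plus strand), and had means of 4.34 and 0.771 in control and cells without Snai2 in the authors' deposited table, with a p of 0.00561. Nox4, an NADPH oxidase that makes hydrogen peroxide (chromosome 7, 87246096 to 87398710, plus strand), had means of 2.59 and 0.661 in the authors' deposited table. Bbox1, the last enzyme of carnitine synthesis (chromosome 2, 110262697 to 110314560, minus strand), had means of 2.26 and 0.763 and the highest p of the set, 0.0459, in the authors' deposited table. Neither Cds2 nor another of the 6 NADPH oxidase genes was listed.

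The interferon-induced pair was Epsti1 and Oas1a. Epsti1 (chromosome 14, 77904239 to 78002657, plus strand) had means of 3.24 and 0.938 in the authors' deposited table, 3.45 times lower with a p of 0.0185. Oas1a codes for an enzyme that senses double-stranded RNA and activates RNase L (chromosome 5, 120896256 to 120907521, minus strand). Its means were 2.16 and 0.437 in the authors' deposited table, 4.93 times lower. Oas1g, a close paralog 8642 bases away, was the other listed gene of 11 in the family, with means of 0.447 and 0.00918 in the authors' deposited table. Reads can be shared between such paralogs, so both values are uncertain.

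Nuclear and meiotic proteins made up 4 genes. Dmc1, the recombinase that pairs chromosomes in meiosis (chromosome 15, 79561497 to 79605109, minus strand), had means of 3.01 and 0.743 in the authors' deposited table, 4.05 times lower. Zmynd15, a repressor known from developing sperm (chromosome 11, 70459433 to 70466202, plus strand), had means of 2.37 and 0.679 in the authors' deposited table. Of its exon bases 12.5% overlap Cxcl16 on the opposite strand, which was itself lower, with 42.7 in control and 21.2 in cells without Snai2 in the authors' deposited table. The part of Cxcl16 in the value of Zmynd15 was not tested. Tcf24, a basic helix-loop-helix factor (chromosome 1, 9960163 to 9967932, minus strand), had means of 2.38 and 0.779 in the authors' deposited table. Sap25, a subunit of the Sin3 corepressor (chromosome 5, 137641334 to 137642902, plus strand), had the smallest fold of the set, 2.33, with 2.11 against 0.908 in the authors' deposited table. An overlapping coding model on the same strand covers 76.5% of the exon bases of Sap25, so its value is uncertain.

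Exons of another annotated gene overlapped those of 11 of the 24 genes, and for 8 of them the other gene ran on the opposite strand. Besides Cass4 and Zmynd15, the share of exon bases overlapped by an opposite-strand gene was 15.8% for Cib2, 14.8% for Tcf24, 12.6% for Dnaaf3, 12.0% for Efhd1, 11.4% for Rhof and 6.81% for Pcdha4. Without strand the reads of such pairs cannot be told apart, so these values are uncertain to that extent.

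Levels of different genes can be set side by side only per length. A division of the deposited means by length is neither stated nor excluded by the labels. Spearman's rank correlation of exon length with total signal was 0.0452 over 1247 listed genes, a value that alone does not settle this. If the means are already per length, the order per kb below corrects for length again. Divided by kilobases of merged exons in GENCODE M21, the control level was highest for F2rl2, at 6.36 per kb, followed by Tnnt1 at 4.01, Nrgn at 2.85 and Gfra4 at 2.65. The lowest were Phf24 at 0.285 and Nox4 at 0.306 per kb. Slamf1, with the third highest mean, came 11th per kb at 1.13. The 24 genes are all protein-coding, with a median protein of 355 residues against 475 over 1184 listed coding genes. Their merged exons had a median of 3790.5 bases against 4498 over 1247 listed genes. The shortest protein was neurogranin with 78 residues and the longest trophinin with 2087.

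Promoter windows from 250 bases before to 50 bases after the start were found in RefSeq for 19 of the 24 genes, 21 windows in all. Of these, 8 windows (38.1%, exact Clopper-Pearson 95% interval 18.1% to 61.6%) held CAGGTG on either strand, each belonging to a different gene. The share was 20.2% over all 32851 windows, 20.9% over listed genes and 15.9% over genes listed as lower. Among listed genes whose control mean lay in the same range as that of the 24, it was 23.4%. The interval of the 24 reaches below all of these shares except the 15.9%. Read on the strand of the gene alone, the motif was in 9.52% of these windows and in 11.2% of all windows. The genes were Slamf1, Gfra4, Phf24, Cds1, Tnnt1, Dnaaf3, F2rl2 and Epsti1, and a single window of Gfra4 held 3 copies. The looser core CANNTG, which includes CAGGTG, was in 76.2% of the windows against 72.3% of all windows. The ISRE core, on either strand, was in 2 windows, of Oas1a and Gfra4 (9.52%, interval 1.17% to 30.4%). It was in 3.44% of all windows and in 5.03% of those of genes listed as lower, and the interval covers both shares.

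CpG content was also compared, as the observed number of CG pairs over that expected from the C and G content. A ratio of at least 0.6, a usual mark of CpG-island promoters, was reached by 7 of the 21 windows (33.3%). The same held for 60.2% of windows of listed genes in the same range of control means, 56.98% of windows of all listed genes and 35.8% of all RefSeq windows. The median ratio was 0.353 for the 24 genes and 0.694 for the listed genes in that range. Low ratios were found at F2rl2 (0.104), Epsti1 (0.109) and Oas1a (0.188), and high ones at Cds1 (0.991) and Efhd1 (0.885). Phf24 had 1 window of each kind, at 0.327 and 1.04. Among windows with a ratio below 0.6, CAGGTG was in 6 of 14 for the 24 genes and in 21.9% over all promoters. A motif match is a description of the letters, and binding was not measured here.

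**Figure D4:**
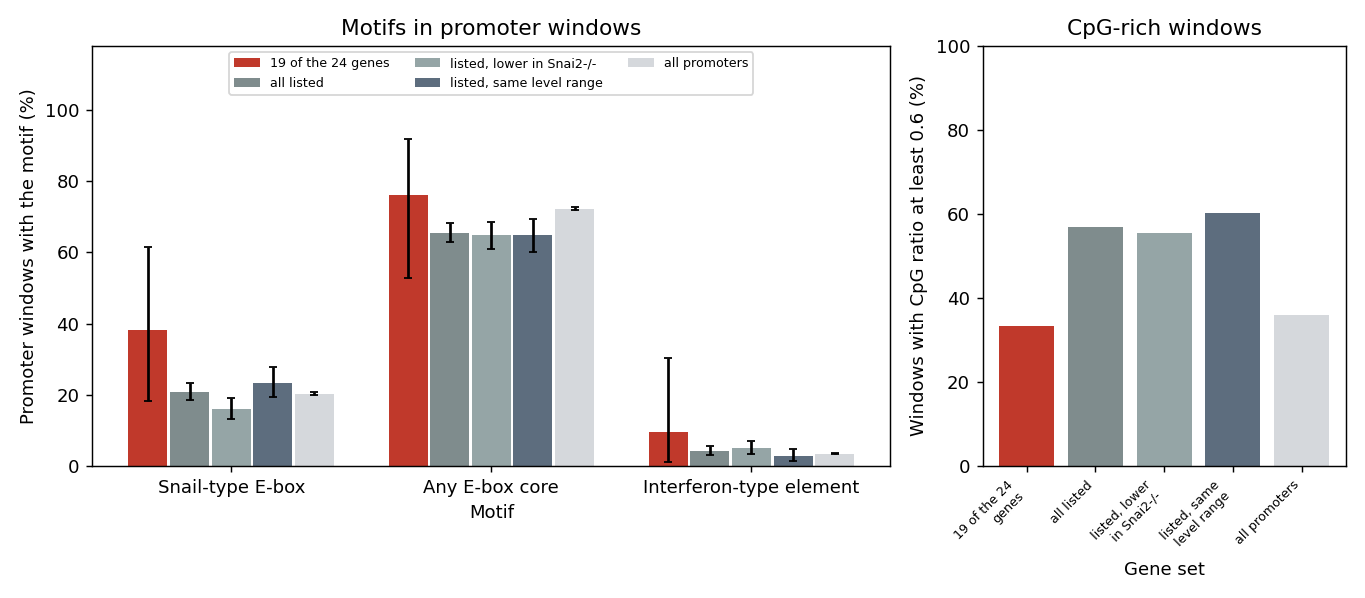
Left, share of promoter windows (%) that hold each of 3 motifs, for the described genes and 4 comparison sets, with exact 95% binomial intervals; right, share of windows (%) with an observed to expected CpG ratio of at least 0.6. The described genes stand at 38.1% for the Snail-type E-box with an interval of 18.1% to 61.6%, and at 33.3% for CpG-rich windows against 60.2% in listed genes of the same level range.

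Marker genes of cell types that the marrow or the sort could hold were looked up in the same table. None of the 24 genes is on any of these 12 lists. The lists were set with earlier results of these data known, so nothing follows from that absence. Of the 182 distinct genes on them 11 were listed, against 7.69% of the 16718 genes tested. By list the share ran from 0% to 20%, with at most 20 genes on a list, and which markers were tested is not known. Of 15 megakaryocyte and platelet genes only Vwf was listed, with means of 23.05 in control and 1.38 in cells without Snai2 in the authors' deposited table. It was 16.7 times lower, with an unadjusted p of 0.0481, near the limit of 0.05, and an FDR of 0.648. Vwf is also on the endothelial list. The part of other cells in the values of F2rl2, Nrgn and Slamf1 was not tested. The defining platelet genes Pf4, Ppbp, Itga2b and Gp9 were absent from the list, through a p of at least 0.05 or for want of a test. Of 20 endothelial genes 3 were listed: Vwf and Stab1 were lower, with Stab1 at 6.61 against 2.73, and Flt4 was higher at 3.28 against 6.85 in the authors' deposited table.

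Of 15 muscle genes 2 were listed, Des and Mylk, both lower, at 43.9 and 231.1 in control and 17.8 and 167.9 without Snai2, per the authors' deposited table. The skeletal muscle genes Acta1, Ckm, Tnnt3 and Myh4 were not listed beside Tnnt1. No gene of the Schwann and neural list (16 genes) was listed beside Gfra4, Nrgn, Grid1, Pcdha4 and Phf24, and none of the germ line and testis list (15 genes) beside Dmc1 and Zmynd15. The myeloid list had 3 of 15 genes listed, Adgre1, Ly6g and S100a9, each higher in Snai2-/- cells, the reverse of the 24. Of the erythroid list only Car1 was listed, as higher, and of the B lymphocyte list only Ebf1, as lower, each out of 15 genes. Ebf1 had means of 362.5 in control and 210.3 in cells without Snai2 in the authors' deposited table. A single listed gene does not show a change in the cell type of its list. No gene of the T and NK lymphocyte, mast cell and epithelial lists was listed. The marrow stroma list, which could check the labelled cell type, had 1 of 15 genes listed, Angpt1 with 171.3 against 126.1 in the authors' deposited table, so its other markers could not be checked. In a bulk sample, fewer cells of a type and less RNA per cell cannot be told apart. The plot of marker lists shows the counts.

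**Figure D5:**
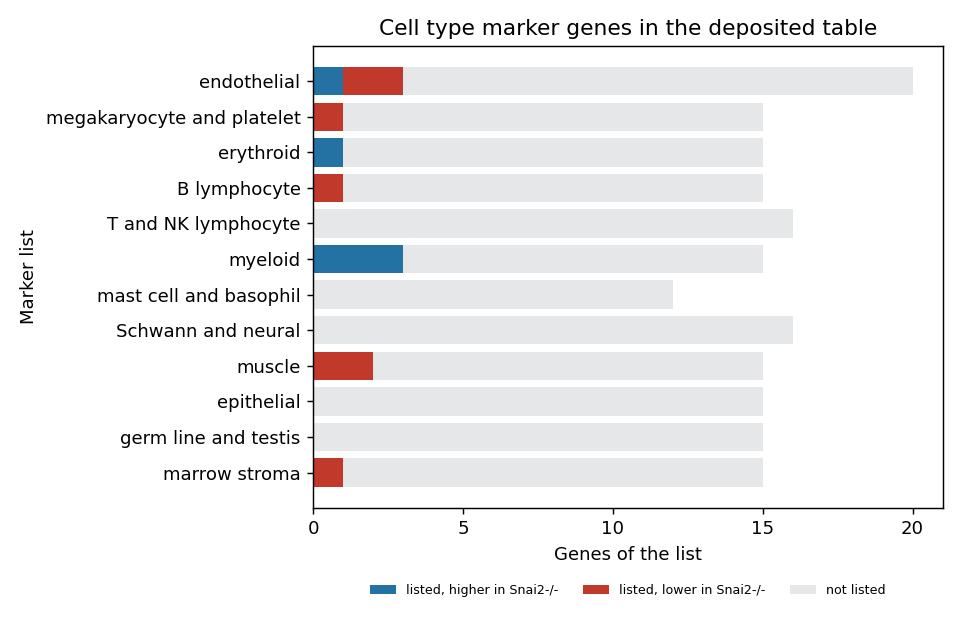
Number of genes (x) of each of 12 cell type marker lists (y) that the authors' deposited table lists as higher (blue) or lower (red) in Snai2-/- cells, with the rest in grey. The megakaryocyte list has 1 of 15 genes listed, and the neural and the germ line lists have 0. Over all genes tested 7.69% were listed.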

How the data were processed

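RNA from 6 libraries of sorted mouse marrow stromal cells (3 control, 3 Snai2-/-) was made into cDNA with SMART-Seq v4 and Nextera XT, per the labels' protocols. Trim Galore, HTSeq, edgeR 3.12.0 and mm10 are named in the submitters' processing notes, without their roles. No aligner, annotation or test model is named in the labels. The deposited table holds, per the file headers, a p-value and a step-up FDR, the ratio of the group means and its signed fold, and 1 least-squares mean per group. These means and the total reads are a deposited normalized signal: in all 1285 rows the sum of both means, times 3, gives the total. The columns named mutant and wildtype were taken for the Snai2-/- and the control group. No library values were used, so no model was fitted, and depth and its precision are unknown. The number of genes tested, 16718, was recovered from FDR, rank and p, a step checked on simulated tables.

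The genes, their limits, lists and families were chosen with earlier results of these data known. All 24 genes are named, with the 3 genes nearest outside each limit, by rule. Families were set by symbol, and promoters to print, the ISRE core and the CpG ratio were chosen after values were seen. Gene positions are from GENCODE M21 (GRCm38, which mm10 denotes), where all 24 symbols matched. Promoters are from RefSeq on GRCm38.p6, for 19 of 24 genes: no window was used for Tro, Pcdha4, Grid1, Tcf24 and Zmynd15. The 25 bases after the start occurred in a GENCODE transcript of the gene for 14 of 21 windows, and their reverse complement for 0. Intervals cover counting of windows only. Tools were scipy 1.17.1, numpy 2.4.6, matplotlib 3.10.9 and pandas 2.3.3 under Python 3.11.15.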

Additional observations from a re-analysis of the deposited data

How the results depend on the processing

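The number of genes follows the limits closely. It was 24 as described, 26 with no symbols left out, 8 with a Snai2-/- mean below 0.5, 52 with a mean below 2, 47 with a control mean of at least 1 and 7 with at least 4. With an unadjusted p below 0.02 or 0.01 in the authors' deposited table it was 12 or 9. The median log2 ratio was -2.16 and kept its direction, which the limits fix. It was -1.98, -1.50 and -1.20 with pseudocounts of 0.1, 0.5 and 1, -1.995 without the genes at the floor, -3.76 with a Snai2-/- mean below 0.5 and -3.61 with a control mean of at least 4. CAGGTG was in 38.1% of windows, also before the start alone, in 9.52% on the strand of the gene only, and the wider CANNTG in 76.2%. On that strand alone the share was 11.2% over all promoters, 11.2% over listed genes, 8.12% over those listed as lower and 13.5% over listed genes in the same range of control means, so the higher share of the 24 genes is not seen there. No paired analysis was possible because the table gives 1 mean per group, and for that reason left-out replicates, a replicate block and count models were not run. Whether 1 library decides any of these means cannot be told.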
